A study of Mus musculus with 12 samples.

Results

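Pigment cells are set apart by the transcription factor Mitf and by the genes of the melanosome, the organelle in which melanin is made and moved. Expression of 10 such genes was followed library by library in mouse clear cell sarcoma: the regulator Mitf, the pigment enzyme gene Dct, the melanosome membrane proteins Pmel and Gpnmb, the cation channel gene Trpm1, and the genes Rab27a, Rab38, Mlph, Myo5a and Mreg, which serve melanosome traffic. They were chosen by symbol for their roles, with earlier results of these data known. All 10 were found among the 55536 genes of the deposited count table. All 10 also passed the filter on low counts, with 17021 genes tested.

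The series compared 2 ways of making the fusion of Ewsr1 and Atf1 that drives this tumour. Translocation tumours (n = 5) came from mice carrying Cre at Hprt together with loxP sites in Ewsr1 and in Atf1. Rosa26 tumours (n = 6) came from mice with EWSR1-ATF1 behind a stop cassette flanked by loxP sites (LSL) at Rosa26, and the labels name no Cre driver for them. Skeletal muscle labelled WT gave 1 library. The labels name no drug treatment, and age, strain and tumour site are not given in them. Hprt is active in most cell types, so the Cre named there does not mark one cell of origin. The title of translocation tumour 5 is that of translocation tumour 2 with a letter added at the end. Titles of translocation tumour 1 and the muscle share a leading number. Titles of Rosa26 tumours 5 and 6, and of Rosa26 tumours 2 and 3, differ in the last digit only. Whether any of these pairs came from 1 animal or litter is not stated. Nothing says that the other samples were separate animals, so the p-values speak only for the spread among these samples.

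Human clear cell sarcoma is known for melanocytic features. In that tumour the fusion protein binds a cAMP response element in the melanocyte promoter of MITF, and MITF then switches on pigment genes. MITF belongs to the MiT family of basic helix-loop-helix leucine zipper factors, which also works in osteoclasts, mast cells and macrophages. In melanocytes Rab27a on the melanosome recruits melanophilin (Mlph), which binds the motor myosin Va (Myo5a), and the loss of any of these genes dilutes coat colour in mice.

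The sequences before the annotated starts are shown because the known routes from fusion to Mitf, and from Mitf to pigment genes, run through short motifs there. RefSeq starts on GRCm38.p6, the build named mm10 in the labels, were at hand for 8 of the 10 genes, giving 13 start windows of 250 bases. Pmel and Rab38 had no entry. Capitals mark the cAMP response element TGACGTCA and its part TGACG, the E-box CACGTG, and the M-box core TCATGTG, all searched on both strands. TGACGTCA contains TGACG on each strand, and the other motifs do not overlap it. Of Mitf's 3 start windows only the one nearest the 3' end of the gene, where the melanocyte form begins, held TGACGTCA. Its first letter lay 153 bases before the start.
Mitf, chr6:97991533-97991782, plus strand: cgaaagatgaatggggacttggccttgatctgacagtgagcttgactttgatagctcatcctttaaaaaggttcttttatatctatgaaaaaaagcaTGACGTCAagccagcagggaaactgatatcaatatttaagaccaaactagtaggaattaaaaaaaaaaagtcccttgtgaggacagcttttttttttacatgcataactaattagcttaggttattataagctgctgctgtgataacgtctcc
Dct, chr14:118052247-118052496, minus strand: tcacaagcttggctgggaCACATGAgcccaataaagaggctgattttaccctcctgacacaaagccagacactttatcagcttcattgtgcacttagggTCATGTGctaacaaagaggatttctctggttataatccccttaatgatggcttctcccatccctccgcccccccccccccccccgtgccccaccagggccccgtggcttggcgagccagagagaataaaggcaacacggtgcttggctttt
Trpm1, chr7:64153585-64153834, plus strand: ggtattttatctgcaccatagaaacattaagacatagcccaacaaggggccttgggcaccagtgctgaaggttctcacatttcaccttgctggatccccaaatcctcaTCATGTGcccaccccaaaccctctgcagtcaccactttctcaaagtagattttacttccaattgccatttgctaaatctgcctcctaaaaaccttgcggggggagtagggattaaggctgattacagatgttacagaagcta
Rab27a, chr9:73063898-73064147, plus strand: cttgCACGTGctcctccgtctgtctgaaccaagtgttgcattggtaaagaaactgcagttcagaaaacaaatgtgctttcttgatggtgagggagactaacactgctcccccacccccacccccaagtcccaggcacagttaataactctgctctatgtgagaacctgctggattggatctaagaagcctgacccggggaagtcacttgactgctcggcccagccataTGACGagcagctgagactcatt
TGACGTCA stood in 1.55% of all 32851 start windows of this length and TCATGTG in 3.25%. Dct held TCATGTG 2 times, at 232 and 151 bases before the start, and Trpm1 held it 1 time, at 142 bases. The Rab27a window shown held TGACG at 22 bases and CACGTG at 246 bases before the start, motifs found in 17.8% and 6.02% of windows. Windows of Mlph and of a second Trpm1 start held CACGTG at 48 and 229 bases. The windows of Gpnmb, Mreg and Myo5a held none of these letters. A match is a description of the sequence and does not show a bound site.

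Sequencing depth differed between libraries. Total counts ran from 2963088 to 21248636 in the translocation tumours and from 6817005 to 21493629 in the Rosa26 tumours, with 25037628 in the muscle. Translocation tumour 2 was the shallowest library. Levels are given as CPM, that is, counts scaled to the size of the library, on the scale of the 11 tumours after TMM normalisation, unless muscle is compared. A count of 0 allows up to 3 counts, which came to 0.122 to 1.49 CPM across the tumours and covers counting error only. The tests are edgeR's quasi-likelihood tests with Benjamini-Hochberg adjustment over all genes, and fold changes are translocation over Rosa26.

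Compared per kilobase of exon on the scale of all 12 libraries, Myo5a was the highest of these genes in the Rosa26 tumours at 10.8 ± 2.90 CPM per kb (SD, n = 6). Rab27a (3.14 ± 1.10), Mitf (3.02 ± 1.16), Mreg (2.47 ± 2.94) and Dct (2.07 ± 1.84 CPM per kb) followed with library ranges that overlapped from each to the next. Gpnmb, Pmel, Mlph and Rab38 lay between 0.798 and 0.351 CPM per kb, also overlapping from each to the next, and Trpm1 was lowest at 0.0703 ± 0.0403 CPM per kb. Only the step from Myo5a to Rab27a separated the ranges of neighbours. In the translocation tumours the means were led by Gpnmb (15.9 ± 32.2) and Dct (10.2 ± 22.8 CPM per kb), each with an SD larger than its mean. By medians the order there was Myo5a at 8.69, Mitf at 3.82 and Mreg at 1.09 CPM per kb, with Dct at 0. Trpm1 and Myo5a have long exon unions over their 23 and 14 annotated transcripts, of 14.7 and 14.8 kb, which lowers the value per kb of both. Trpm1 was also low by counts, at 0 to 47 per tumour.

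**Figure D1:**
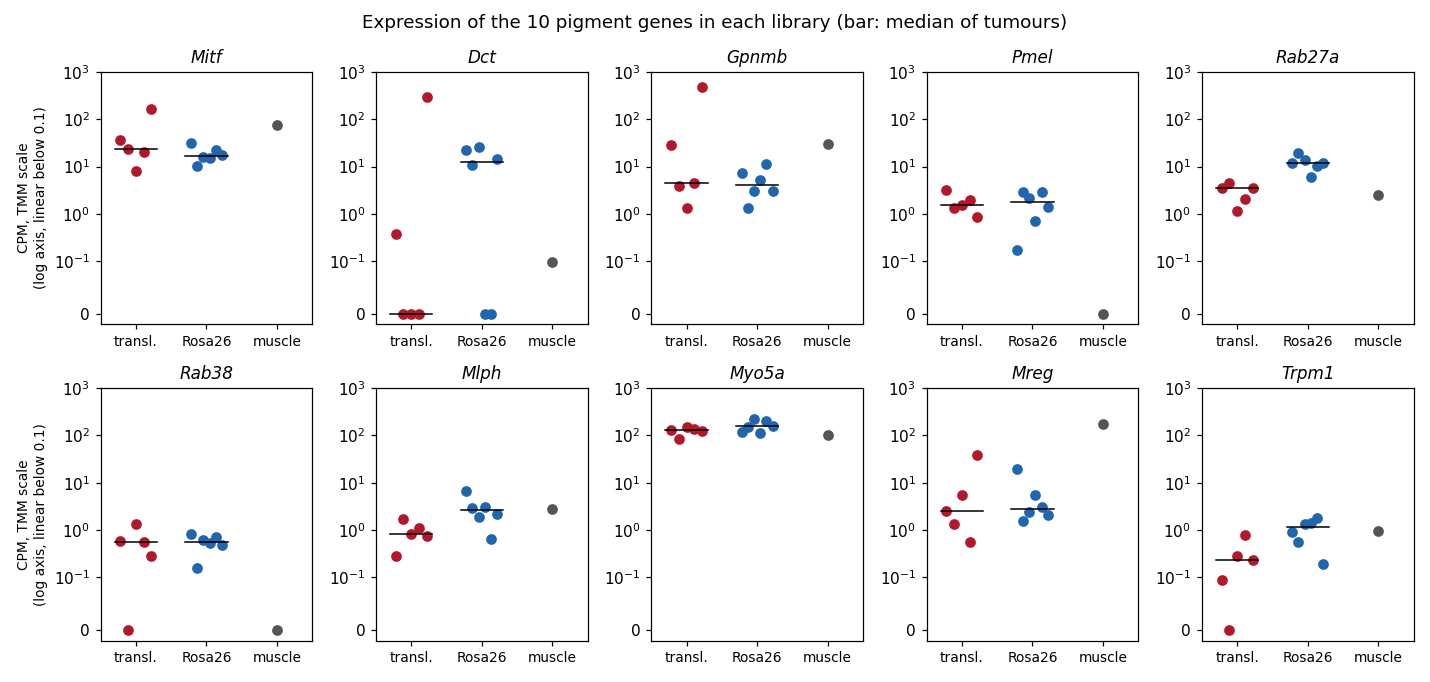
CPM of each of the 10 genes (log axis, linear below 0.1, TMM scale of all 12 libraries) in 5 translocation tumours, 6 Rosa26 tumours and 1 muscle library. Points are libraries and bars are medians of the tumours. Rab27a alone has tumour groups that do not overlap, and 1 translocation tumour stands far above the rest for Mitf, Dct, Gpnmb and Mreg.

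Rab27a was the only gene of the 10 that passed the test between genotypes. Of all genes tested 2.7% passed in either direction and 1.56% were lower and 1.14% higher in the translocation tumours. Rab27a, the small GTPase that ties melanosomes and secretory lysosomes to their motors (ENSMUSG00000032202, chromosome 9, 73044854 to 73097629, mm10), was 3.87, 4.95, 1.24, 2.25 and 3.97 CPM in translocation tumours 1 to 5. In Rosa26 tumours 1 to 6 it was 12.7, 20.7, 14.7, 6.67, 10.9 and 12.8 CPM. Every Rosa26 tumour thus lay above every translocation tumour, a separation that 5.18% of the genes tested showed in either direction and 2.73% showed as lower in the translocation tumours. The means were 3.25 ± 1.49 CPM (SD, n = 5) and 13.1 ± 4.62 CPM (SD, n = 6), which made Rab27a -2.04 ± 0.43 on the log2 scale (SE), with an adjusted p of 0.0321 in edgeR.

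The size of the Rab27a difference varied little, while its call rested on single libraries. Leaving out each tumour in turn gave log2 fold changes from -2.19 to -1.83 and a call in 6 of 11 fits. It was lost on leaving out translocation tumour 1 or 4, with edgeR adjusted p of 0.066 and 0.0518. It was also lost on leaving out Rosa26 tumour 3, 5 or 6, with edgeR adjusted p of 0.0908, 0.0652 and 0.077. Summing translocation tumours 2 and 5 into 1 sample, and Rosa26 tumours 5 and 6 into another, also ended it (log2 fold change -2.21, edgeR adjusted p = 0.0623).

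Rab27a also serves the granules of cytotoxic lymphocytes, so lymphocyte genes were set beside it. The T and NK cell markers summed to 3.81 to 36.4 CPM in the translocation tumours and 7.95 to 78.3 CPM in the Rosa26 tumours. Of the 9 tested of 10 listed, 0 rose and 1 fell, the T cell receptor subunit gene Cd3e with a log2 fold change of -4.93 (edgeR adjusted p = 0.0413). Over all genes tested, 1.14% rose and 1.56% fell. Cd3e passed the filter in 6 of 11 leave-one-out fits and was called in 1, without Rosa26 tumour 2. That tumour had the highest Rab27a of all and the lowest sum of these markers in its group, with Cd3e at 0.256 CPM. Rosa26 tumour 1 had the highest marker sum and 12.7 CPM of Rab27a. The keratinocyte markers summed to 23.6 to 294 CPM in the Rosa26 tumours and 5.45 to 26.6 CPM in the translocation tumours, and Rosa26 tumour 2 was highest there too. Of 4 tested keratinocyte markers 0 rose and 1 fell, Sfn (-3.01 in log2, edgeR adjusted p = 0.0466, kept without translocation tumour 5 or Rosa26 tumour 1 only). Their part in the Rab27a difference was not tested. In bulk RNA, fewer cells of a type and less RNA per cell cannot be told apart.

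The partners of Rab27a did not separate the genotypes. Mlph, which encodes the adaptor between Rab27a and myosin Va (ENSMUSG00000026303, chromosome 1), was 0.322, 1.98, 0.883, 1.18 and 0.824 CPM in translocation tumours 1 to 5. It was 7.03, 3.25, 2.03, 3.43, 0.693 and 2.36 CPM in Rosa26 tumours 1 to 6. Rosa26 tumour 5 fell within the translocation range and the other Rosa26 tumours lay above it. Mlph stood at -1.68 ± 0.62 in log2 (SE), and edgeR's adjusted p was 0.128. With sex, read from Xist and Y-linked genes, as a covariate Mlph passed (-1.97, edgeR adjusted p = 0.0452), as it did in DESeq2's Wald test (-1.75, DESeq2 adjusted p = 0.0339).

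Myo5a, the gene of the motor itself (ENSMUSG00000034593, chromosome 9, 75071015 to 75223688), was the most evenly expressed of the 10. It was 144, 97.0, 165, 146 and 139 CPM in translocation tumours 1 to 5 and 125, 164, 236, 122, 214 and 170.4 CPM in Rosa26 tumours 1 to 6. The groups overlapped, with the highest library 1.70-fold above the lowest among the translocation tumours and 1.93-fold among the Rosa26 tumours. The log2 fold change was -0.31 ± 0.25 (SE, edgeR adjusted p = 0.472). Myosin Va also carries vesicles in neurons and many other cells, and its RNA alone does not mark melanocytes.

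Rab38, a GTPase that sorts pigment enzymes to the melanosome (ENSMUSG00000030559, chromosome 7), was scarce, at 0 to 1.46 CPM in the translocation tumours and 0.171 to 0.856 CPM in the Rosa26 tumours. The groups overlapped (log2 fold change 0.17, edgeR adjusted p = 0.886), and counts of 0 to 33 per tumour limit what could be seen.

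Mreg, the gene of melanoregulin, which acts on melanosome transfer and transport (ENSMUSG00000039395, chromosome 1, 72159442 to 72212307), was 2.79, 1.49, 6.09, 0.619 and 42.7 CPM in translocation tumours 1 to 5. In Rosa26 tumours 1 to 6 it was 20.2, 1.71, 2.65, 6.10, 3.34 and 2.20 CPM. Translocation tumour 5 and Rosa26 tumour 1 stood above the other 9 tumours, which lay at 6.10 CPM or lower. The log2 fold change was 0.85 ± 0.998 (SE, edgeR adjusted p = 0.634) and turned to -1.08 without translocation tumour 5 (edgeR adjusted p = 0.465). Skeletal muscle markers made up 5.18% of all counts in Rosa26 tumour 1, 13.3% in the muscle library and at most 0.319% in the other tumours, and the muscle library was rich in Mreg. None of these 12 markers passed between genotypes. In translocation tumour 5 the same markers made up 0.0108% of counts. The part of muscle RNA in the Mreg value of Rosa26 tumour 1 was not tested.

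Mitf itself (ENSMUSG00000035158, chromosome 6, 97807052 to 98021349) was detected in every tumour. It was 40.8, 26.7, 8.88, 21.7 and 180.5 CPM in translocation tumours 1 to 5. In Rosa26 tumours 1 to 6 it was 32.7, 10.9, 17.1, 16.4, 24.0 and 19.2 CPM. Translocation tumour 5 was 4.42-fold above the next tumour, and the other translocation tumours spanned the Rosa26 range on both sides. The log2 fold change was 1.48 ± 0.64 (SE, edgeR adjusted p = 0.176), and 0.28 ± 0.40 without translocation tumour 5 (SE, edgeR adjusted p = 0.716). Counts per gene add up all promoters, so the share of the melanocyte form among the 8 annotated Mitf transcripts cannot be read from them. Rosa26 tumour 1, the highest of its group for Mitf, also had skeletal muscle markers at 5.18% of its counts. The muscle library held 77.0 CPM of Mitf on the TMM scale of all 12 libraries and 31.5 CPM on total counts. The part of muscle RNA in the Mitf value of that tumour was not tested.

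The relatives of Mitf did not share its peak. Tfeb, Tfe3 and Tfec, the other MiT family genes, were 5.77, 14.2 and 4.74 CPM in translocation tumour 5, where Tfeb and Tfe3 were the lowest of all 11 tumours and Tfec was above Rosa26 tumour 4 only. Of 6 genes of the family and of the folliculin complex that holds these factors in check (Flcn, Fnip1 and Fnip2), 0 rose and 0 fell, with a median log2 fold change of -0.08 where all genes tested had 0.07.

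Dct, which encodes dopachrome tautomerase of the eumelanin pathway (ENSMUSG00000022129, chromosome 14, 118012790 to 118052244), went from no count to 332 CPM between tumours. In translocation tumours 1 to 5 it held 4, 0, 0, 0 and 6454 counts, or 0.430, 0, 0, 0 and 332 CPM. In Rosa26 tumours 1 to 6 it held 388, 139, 628, 0, 0 and 291 counts, or 23.7, 11.9, 27.7, 0, 0 and 15.3 CPM. So 5 of 11 tumours had no Dct count, 3 of them from the translocation group and 2 from the Rosa26 group, and the deepest of these, Rosa26 tumour 5, allows at most 0.122 CPM. Rosa26 tumours 5 and 6, with adjoining titles, fell on opposite sides. Translocation tumour 5 was 11.99-fold above the next tumour, Rosa26 tumour 3.

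The genotype contrast for Dct had no stable direction. Its log2 fold change was 2.34 ± 1.999 (SE, edgeR adjusted p = 0.498) with all tumours and -7.03 ± 2.06 without translocation tumour 5 (SE, edgeR adjusted p = 0.0742). It was also negative in limma voom, which weights libraries by quality (-5.65, limma adjusted p = 0.402), with sex as a covariate (-0.16) and with macrophage markers as a covariate (-1.73). An antisense gene within Dct, 4930435M08Rik, held 51 counts in translocation tumour 5 and 3 in all other tumours. Whether counting used strand is not given in the sources used here. Reads of both strands may therefore be mixed, and 51 counts stand beside 6454.

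Gpnmb, a melanosome and lysosome glycoprotein gene that is also strong in macrophages and osteoclasts (ENSMUSG00000029816, chromosome 6, 49036546 to 49070929), had the widest range of the 10 by ratio among genes counted in every tumour. It was 32.3, 4.46, 1.41, 4.78 and 529 CPM in translocation tumours 1 to 5. In Rosa26 tumours 1 to 6 it was 7.89, 1.45, 3.36, 5.53, 11.9 and 3.25 CPM. Translocation tumour 5 stood 16.4-fold above translocation tumour 1, and the other 3 translocation tumours lay within the Rosa26 range or just under it. The log2 fold change was 4.36 ± 1.35 (SE, edgeR adjusted p = 0.084), and 0.95 ± 0.79 without translocation tumour 5 (SE, edgeR adjusted p = 0.501).

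The summed markers of the other cells that express Gpnmb were low in that tumour, though single markers differed. The 14 macrophage markers summed to 852 CPM in translocation tumour 5, the lowest of the 11 tumours, against 1417 to 4117 CPM in the other translocation tumours and 1137 to 3115 CPM in the Rosa26 tumours. Of these 14 markers, 5 were lowest there, 1 was highest and 8 lay between. The lowest included the macrophage growth factor receptor gene Csf1r, at 19.1 CPM against 129 to 381 CPM in the other 10 tumours. The highest was Cd14, a co-receptor for bacterial lipopolysaccharide, at 53.5 CPM against 6.53 to 28.3 CPM, and the lysozyme gene Lyz2, at 312 CPM, lay between. The 8 osteoclast markers summed to 32.2 CPM, again the lowest, against 90.5 to 666 CPM elsewhere, and 2 of the 8 were lowest there, among them the osteoclast protease gene Ctsk at 4.22 CPM. The proton pump subunit gene Atp6v0d2 was highest there, at 15.3 CPM against 2.48 to 6.40 CPM. The part of these cells in the Gpnmb value was not tested. No macrophage marker was at 0 in any tumour, and 0 of 14 passed between genotypes. Of 5 tested osteoclast markers 0 rose and 1 fell, Ocstamp, needed for osteoclast cell fusion (-2.37 in log2, edgeR adjusted p = 0.0498, kept in 1 of the 6 leave-one-out fits that tested it, without Rosa26 tumour 1). Over all genes tested, 1.14% rose and 1.56% fell. The osteoclast list as a whole leaned the other way from Ocstamp, with 4 of the 5 log2 fold changes positive. Their median was 0.84, and 1.14 without translocation tumour 5. Mast cell markers summed to 19.8 CPM in translocation tumour 5, and 7 of 10 were at 0 there, with the sum made up mostly of Kit at 18.6 CPM.

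**Figure D2:**
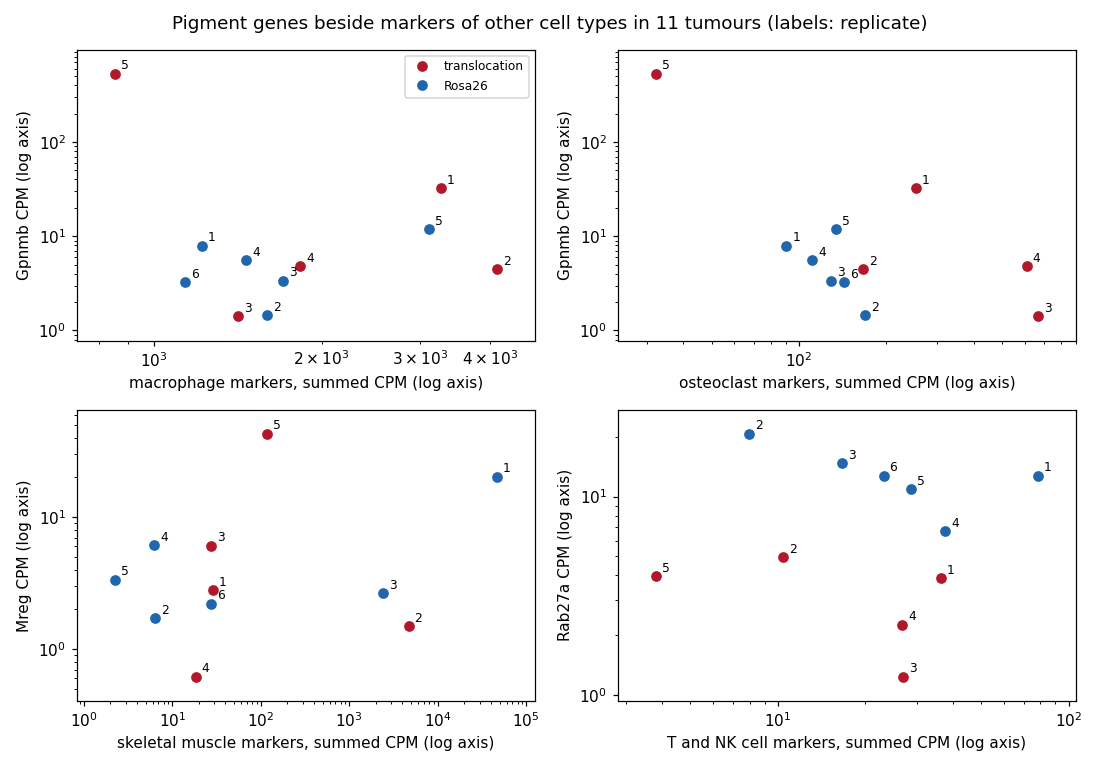
CPM of Gpnmb, Mreg and Rab27a (y axes, log) against the summed CPM of marker lists (x axes, log) in the 11 tumours, red for translocation, blue for Rosa26, numbered by replicate. Translocation tumour 5 has the highest Gpnmb, 529 CPM, with the lowest macrophage and osteoclast sums, 852 and 32.2 CPM, and Rosa26 tumour 1 has the highest sum of skeletal muscle markers.

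The remaining pigment genes did not follow Mitf into that tumour. Pmel, whose protein forms the fibrils on which melanin is laid down (ENSMUSG00000025359, chromosome 10, 128704195 to 128720238), was 3.65, 1.49, 1.63, 2.08 and 0.927 CPM in translocation tumours 1 to 5. In Rosa26 tumours 1 to 6 it was 0.183, 3.16, 2.34, 0.762, 3.10 and 1.47 CPM. Translocation tumour 5 was the lowest of its group, and the groups overlapped (log2 fold change 0.08 ± 0.64, SE, edgeR adjusted p = 0.951). Pmel shares 837 bases with Cdk2 on the other strand, and Cdk2 held 71 to 1129 counts per tumour against 3 to 76 for Pmel. Without the strand setting, reads of the shared bases cannot be told apart.

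Trpm1, a channel gene of melanocytes and retina that hosts a microRNA, Mir211, in an intron (ENSMUSG00000030523, chromosome 7, 64153835 to 64269775), was at the edge of detection. It held 0 to 15 counts in the translocation tumours, or 0 to 0.844 CPM, and 4 to 47 counts in the Rosa26 tumours, or 0.210 to 1.92 CPM. The groups overlapped, and the log2 fold change was -1.62 ± 0.69 (SE, edgeR adjusted p = 0.171). The Mir211 row held 0 counts in all tumours. In the windows shown above Dct held the M-box core 2 times and Trpm1 1 time. In translocation tumour 5 Dct reached 332 CPM and Trpm1 0.257 CPM, and a link of these levels to the motif was not tested.

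Among the 10 genes, translocation tumour 5 was thus the highest for 4, Mitf, Dct, Gpnmb and Mreg, and at least 2-fold above every other tumour for the same 4. Of all genes tested, 28.4% were highest in that tumour and 11.3% were at least 2-fold above every other, so high values there were common across the genome. The 10 genes summed to 1230.0 CPM in translocation tumour 5 and to 138 to 308 CPM in the other 10 tumours. Myo5a made up 11.3% of that sum in translocation tumour 5 and 54.1% to 88.3% in the others. Translocation tumour 2, whose title lacks only the last letter of that of translocation tumour 5, had 26.7 CPM of Mitf and 4.46 CPM of Gpnmb. It had no Dct count, which at its depth allows 1.49 CPM.

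**Figure D3:**
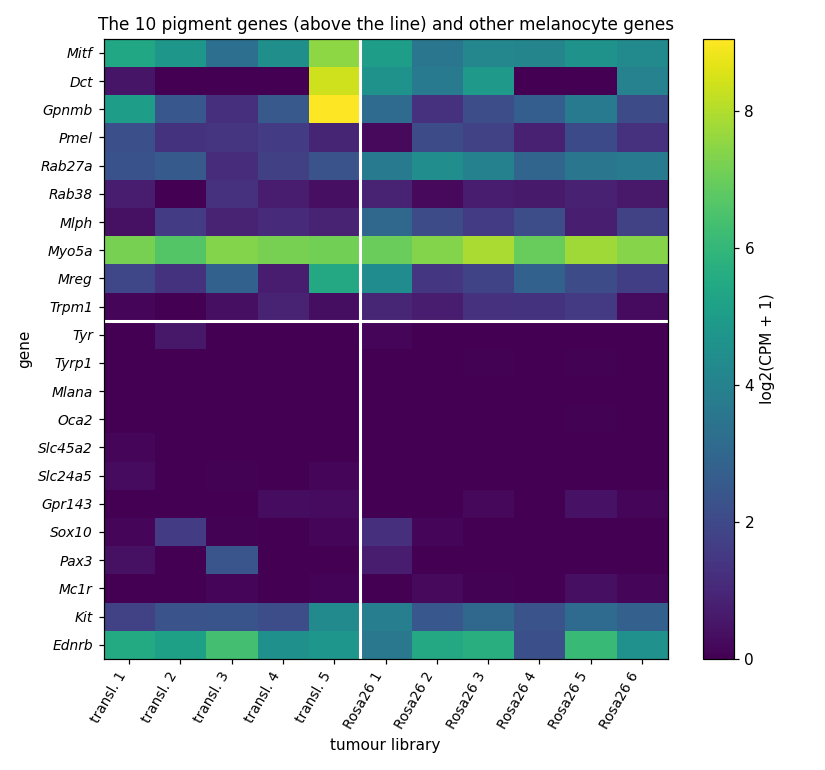
Colour gives log2(CPM + 1) of the 10 genes (above the white line) and 12 other melanocyte genes in 11 tumour libraries, translocation left and Rosa26 right. Mitf, Dct, Gpnmb and Mreg are bright in translocation tumour 5, while Tyr, Tyrp1 and Mlana are dark in all libraries, at 0.495 CPM or less.

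In translocation tumour 5, 5 of 12 listed pigment enzymes and melanosome proteins outside the 10 genes had 0 counts. Each of the tumours had 4 to 7 of the 12 at 0. Others of the list were present in translocation tumour 5, such as the exchanger gene Slc24a4 at 94.9 CPM and the tetraspanin gene Cd63 at 285 CPM. Tyr, the rate-limiting enzyme of melanin synthesis, Tyrp1, its relative in the same complex, Mlana, a melanosome protein, and the transporter genes Oca2 and Slc45a2 each had 0 counts in translocation tumour 5, which allows up to 0.154 CPM. Sox10, the neural crest factor that activates Mitf and Dct in melanocytes, was 0.103 CPM there and at most 1.98 CPM in any tumour. Pax3, another activator of Mitf, was 0 in translocation tumour 5 and 4.28 CPM in translocation tumour 3. Kit, the receptor for stem cell factor, and Tfap2a, a neural crest factor, were highest in translocation tumour 5 at 18.6 and 35.4 CPM. Neither passed between genotypes (log2 fold change -0.12 and 2.25, edgeR adjusted p = 0.919 and 0.184).

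Over all genes tested, 1.14% rose and 1.56% fell between genotypes. Of 12 listed pigment enzymes and melanosome proteins outside the 10 genes, 5 were tested, 1 rose and 0 fell. The one that rose was Slc24a4, a potassium-dependent sodium/calcium exchanger gene linked to pigmentation, at 109 ± 70.7 CPM (SD, n = 5) against 10.3 ± 8.54 CPM (SD, n = 6), or 3.40 ± 0.77 in log2 (SE), with edgeR's adjusted p at 0.0428. Of the 11 leave-one-out fits, those lacking translocation tumour 2 or 5 kept its call, and elsewhere edgeR's adjusted p reached 0.121. Translocation tumour 2 held 2.97 CPM of it, so these groups overlapped. Cd63, a tetraspanin of lysosomes and melanosomes, had 1.15 without a call (edgeR adjusted p = 0.119). Of 11 melanocyte regulators and receptors 7 were tested and 0 passed, with Sox9 at -2.05 (edgeR adjusted p = 0.0606, and 0.0278 with -2.56 without translocation tumour 5).

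Genes that build melanosomes and related organelles were expressed in all tumours, and 3 of 26 rose while 0 fell. Over all genes tested, 1.14% rose and 1.56% fell. Dtnbp1, Bloc1s1 and Bloc1s5, all subunits of the BLOC-1 sorting complex, were higher by 1.30, 1.28 and 1.45 in log2, where edgeR gave adjusted p of 0.0359, 0.0434 and 0.0429. Bloc1s1 was 39.8 ± 4.34 CPM (SD, n = 5) against 16.3 ± 6.57 CPM (SD, n = 6). Those calls held in 4, 4 and 3 of 11 leave-one-out fits, and edgeR's adjusted p reached 0.124 where they were lost. Dtnbp1 kept its call when translocation tumour 3, 4 or 5, or Rosa26 tumour 1, was dropped. Bloc1s1 kept it when translocation tumour 2 or 5, or Rosa26 tumour 2 or 4, was dropped, and Bloc1s5 when translocation tumour 2, 4 or 5 was. The other 4 listed subunits of the complex, Bloc1s2, Bloc1s3, Bloc1s4 and Bloc1s6, did not pass, with log2 fold changes of 0.79, 0.42, 0.53 and 0.32. The median over the 26 genes was 0.37, against 0.07 over all genes tested.

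Effectors and relatives of Rab27a and myosin V showed no calls, with 0 of 18 tested genes higher and 0 lower and a median log2 fold change of -0.29. Rab27b, the closest relative of Rab27a, was 110 and 87.4 CPM in translocation tumours 3 and 4, 0.412 to 3.47 CPM in the other translocation tumours and 12.6 to 45.3 CPM in the Rosa26 group, a difference of 0.70 in log2 with edgeR's adjusted p at 0.711. The 2 tumours highest in Rab27b were the 2 lowest in Rab27a. Sytl2, an effector that tethers Rab27a vesicles at the membrane, had 2.48 (edgeR adjusted p = 0.0554), and Madd, an exchange factor for Rab3 and Rab27, had -1.22 (edgeR adjusted p = 0.0555, and 0.0248 without translocation tumour 5).

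Of 13 tested Mitf targets outside the melanosome, 10 had positive log2 fold changes. The median was 0.39, and 0.32 without translocation tumour 5, against 0.07 over all genes tested. By call 0 rose and 1 fell, where 1.14% of all genes tested rose and 1.56% fell. The one that fell was the survival gene Bcl2, at 5.39 ± 3.58 CPM (SD, n = 5) against 29.0 ± 8.04 CPM (SD, n = 6), or -2.44 ± 0.53 in log2 (SE), with edgeR's adjusted p at 0.0363. Bcl2 was 0.721 CPM in translocation tumour 5, the lowest of all tumours and the tumour with the most Mitf. Its call held in 4 of 11 leave-one-out fits, the ones that dropped translocation tumour 2, 4 or 5, or Rosa26 tumour 2, and edgeR's adjusted p reached 0.0968 in the rest. The metabolic coactivator gene Ppargc1a, also under Mitf in melanocytes, was 110.4 CPM in translocation tumour 5 and 1.12 to 30.7 CPM elsewhere (log2 fold change 1.53, edgeR adjusted p = 0.265). Cdk2 and Cdkn2a of the same list were highest in translocation tumour 5 too, at 58.1 and 27.2 CPM. Acp5, at 6.64 CPM, and Ctsk of that list were lowest there, as Bcl2 was. The part of Mitf in these values was not tested.

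Over the 10 genes themselves, 0 rose and 1 fell, 6 log2 fold changes were positive and 4 negative, and the median was 0.13. Without translocation tumour 5 the median was -0.70 and Rab27a was again the 1 gene called, where 4.27% of all genes passed. At an unadjusted p under 0.05, 5 of the 10 genes and 24.8% of all genes were past the line by edgeR.

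**Figure D4:**
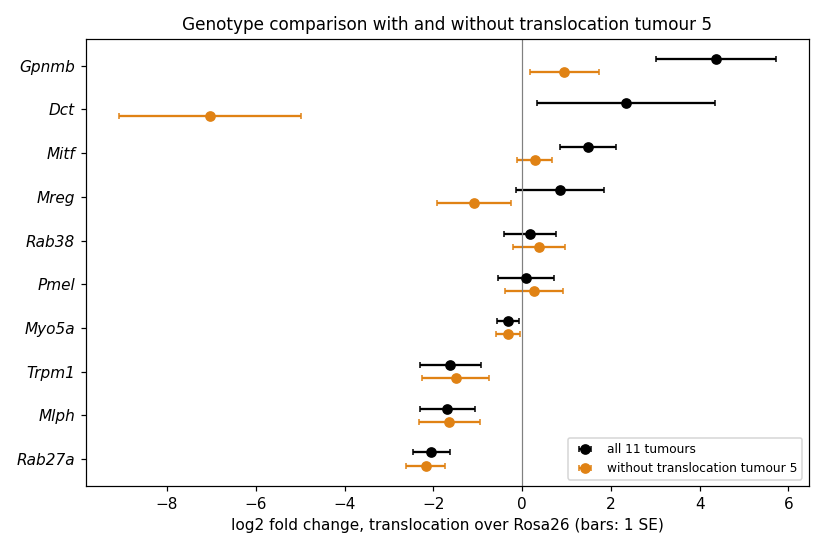
Log2 fold change of each gene, translocation over Rosa26, with 1 SE, for all 11 tumours (black) and without translocation tumour 5 (orange). Dct and Mreg change sign without that tumour and Gpnmb falls from 4.36 to 0.95, while Rab27a stays near -2.

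Genes whose levels ran most like these were taken by Pearson's r of log2 CPM over the 11 tumours, as a description. For Mitf the 3 closest were Gpnmb (r = 0.966, rho = 0.845), the magnesium transporter gene Nipal1 (r = 0.955, rho = 0.918) and Prodh, a proline dehydrogenase gene (r = 0.948, rho = 0.855). Without translocation tumours 5 and 3, the 2 farthest from the median of Mitf, r was 0.860, 0.876 and 0.830. For Gpnmb they were Mitf, Mocos, which activates molybdenum enzymes (r = 0.953, rho = 0.782), and Ccm2, a vascular adaptor gene (r = 0.952, rho = 0.927). Without translocation tumours 5 and 1 these values of r were 0.849, 0.612 and 0.847. For Rab27a the closest were Dtx1 (r = 0.975, rho = 0.991), a Notch pathway gene, Frmpd1 (r = 0.962, rho = 0.945) and Lsr (r = 0.944, rho = 0.973), a tricellular junction gene, and without translocation tumour 3 and Rosa26 tumour 2 these values of r were 0.978, 0.930 and 0.933. All 3 also fell in the translocation tumours, with -3.53, -3.54 and -3.98 in log2 and edgeR's adjusted p at 0.0131, 0.0363 and 0.0235, so the genotype difference is part of these values. These genes were the highest of 17021 and the tumours fall into 2 genotypes, so no p is given.

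Skeletal muscle, the only normal tissue here, expressed 4 of the 10 genes well. On the TMM scale of all 12 libraries it held 173 CPM of Mreg, 104 CPM of Myo5a, 77.0 CPM of Mitf and 29.5 CPM of Gpnmb. Mreg was at least 2-fold below muscle in every tumour, at 0.570 to 38.6 CPM, as were 8.56% of the 22184 genes examined, and none of the 10 was at least 2-fold above it in every tumour, as were 7.67%. With 1 muscle library, which may share an animal or litter with translocation tumour 1, there is no replicate check. The scale matters here, since TMM reduces the effective size of the muscle library to 0.409 of its total, against 0.771 to 1.26 of the total in the tumours, a shift of 1.51 on the log2 scale against the median tumour. On total counts Mreg was 70.8 CPM in muscle and still above all 11 tumours, though translocation tumour 5, at 39.0 CPM, then lay within 2-fold. Mitf in muscle was above 10 of 11 tumours on the TMM scale and above 8 of 11 on total counts, and Myo5a in muscle was below 10 and below 11.

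Muscle held 1 count of Dct and 0 of Pmel and Rab38, genes that were also scarce or at 0 in some tumours. It held 10 counts of Trpm1 and 28 of Mlph, with 3 of 11 tumours above it for each on the TMM scale. Rab27a was 2.44 CPM in muscle, below all 6 Rosa26 tumours and below 3 of 5 translocation tumours, and on total counts below all 11. All Rosa26 tumours were 2.51-fold to 7.82-fold above muscle on the TMM scale. The translocation tumours were 0.466-fold to 1.79-fold of it.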

How the data were processed

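RNA from 11 mouse tumours and 1 skeletal muscle was sequenced after ribosomal RNA depletion with a stranded kit, per the labels' protocols. The deposited values are raw counts per Ensembl gene for each library. Tools listed in the submitters' processing notes, without role or order, are STAR 2.7.5a, RSEM, featureCounts, DESeq2 and cutadapt, with the build mm10. The annotation release, the strand setting and the treatment of multimapping reads: not given in the sources used here. Symbols, positions and exon lengths came from GENCODE M21, which matched all 55536 identifiers, and start sequences from RefSeq on GRCm38.p6.

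The 11 tumours were fitted with edgeR 4.0.16 in R 4.3.3 (TMM, filterByExpr at a minimum count of 10, robust quasi-likelihood), called at an adjusted p under 0.05, and the code was tested on simulated data. Muscle was compared by fold only, with counts under 3 set to 3 on the lower side. Log2 CPM used a prior count of 2. All 10 genes are named. Of each other list the called genes and those of smallest adjusted p were eligible, and further genes (Rab27b, Kit, Tfap2a, Csf1r, Cd14, Lyz2, Ctsk, Atp6v0d2, Ppargc1a, Bloc1s2 and related subunits, the MiT family) were named after their values were seen. The genes and lists were chosen with earlier results of these data known. Alternatives were DESeq2 1.42.0 (size factors, Wald test), limma 3.58.1 voom, 2 other filters, muscle in the fit, 2 pairs summed (translocation tumours 2 and 5, Rosa26 tumours 5 and 6), each tumour left out, 3 libraries left out, and covariates for sex, muscle and macrophage markers. Sex read as 4 female and 1 male translocation tumours, and 2 female and 4 male Rosa26 tumours.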

Additional observations from a re-analysis of the deposited data

Results flagged for a closer look

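Values that stood apart within a group were sought by the gap to the nearest library over the group's range, for 10 genes in 2 groups. The gap was taken in plain CPM and not in log2 CPM, which widens gaps above high values. How often chance flags a group on that scale was not tested. The search found 5, and 4 of them were in translocation tumour 5. In that tumour Mitf was 180.5 CPM with the nearest library at 40.8 CPM, and Dct was 332 CPM with the nearest at 0.430 CPM. Gpnmb was 529 CPM with the nearest at 32.3 CPM, and Mreg was 42.7 CPM with the nearest at 6.09 CPM. The other was Mreg in Rosa26 tumour 1, at 20.2 CPM with the nearest library at 6.10 CPM. The flags in 1 tumour are not independent of each other.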

How the results depend on the processing

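Over 10 genes and all alternatives, 188 fold changes kept direction and call, 6 lost a call, 2 gained one and 14 changed sign. The 188 include Dct, Gpnmb and Mreg in DESeq2's Wald test, which gave them a fold change but no adjusted p. They were counted there as not called. All these fold changes come from 210 of 220 possible fits, since the low-count filter left out Trpm1 in 5, Dct in 4 (without Rosa26 tumour 1, 2, 3 or 6) and Rab38 in 1. The 6 lost calls were all of Rab27a, which was called in 16 of 22 alternatives (log2 fold change -2.57 to -1.79, adjusted p 2.38e-05 to 0.0908). The 460 genes called (194 higher, 266 lower) became 2439 in DESeq2's Wald test (1236 higher, 1203 lower), 2651 in limma voom (1252 and 1399), 141 with the 2 pairs summed (40 and 101), 2534 with sex as a covariate (1551 and 983) and 287 with muscle markers as a covariate (96 and 191). Leaving out 1 tumour gave 63 to 744 calls. Of the 10 genes, 2 were called in the Wald test, where Dct, Gpnmb and Mreg had no adjusted p. There were 2 called with sex as a covariate, 0 with the 2 pairs summed, and 0 to 1 with 1 tumour left out. Genes 2-fold below muscle in every tumour went from 1 to 0 on total counts. Signs changed for Dct in limma voom (-5.65), without translocation tumour 5 (-7.03), without translocation tumours 2 and 5 and Rosa26 tumour 4 (-7.27), with sex (-0.16) and with macrophage markers (-1.73) as covariates. They changed for Mreg in limma voom (-0.31), without translocation tumour 5 (-1.08) and without the same 3 libraries (-0.92). For Pmel they changed without translocation tumour 1 (-0.28) and Rosa26 tumours 1 (-0.15) or 4 (-0.03). For Rab38 they changed without translocation tumour 3 (-0.41) or Rosa26 tumour 2 (-0.01) and with sex as a covariate (-0.22). The cause was not tested beyond what each setting changes. No paired analysis was possible because replicate numbers follow accession order and pair nothing. With 1 tumour left out the fold changes reached 2.69 for Dct, 0.30 for Pmel, 0.38 for Rab38 and 1.78 for Mreg at their highest. Depth limits Rab38, Trpm1, Pmel and Mlph, with counts of 0, 0, 3 and 3 in their lowest tumour.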
